A study of Mus musculus with 10 samples.

Results

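Nuclear genes of oxidative phosphorylation were followed by TT-seq, which reads RNA made within minutes of labelling, in TX1072 embryonic stem cells over 24 h of doxycycline (DOX). The genes were taken by name, as those whose symbol begins with Nduf, Uqcr, Atp5, Sdha to Sdhd or Cox4 to Cox8. Genes on chromosomes X, Y and 16 were left out, and a mean of at least 20 reads over the 10 libraries was required. Of 24386 genes counted, 97 had such a name, and 85 of them met the limits. The 85 genes fall into complex I (41 genes), complex II (8), complex III (8), complex IV (13) and complex V (15), and they lie on 17 chromosomes. Genes were placed by symbol, so that complex V includes Atp5s and Atp5sl, which are not known as subunits of the ATP synthase. Within the limit of 20 reads the members with the fewest were Sdhaf1 with a mean of 24.5 reads and Cox7a1 with 33.8, and below it the closest was Cox4i2 with 3.3.

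All samples were TX1072 cells, labelled wild type and kept in serum with LIF and 2i. The line was derived from a female mouse embryo with 1 Mus musculus castaneus (Cast) and 1 C57BL/6 (B6) chromosome set. The line, including the 0 h cells, carries a DOX-inducible promoter at Xist on the B6 X chromosome. The 0 h group received no DOX, and the other groups received 1 µg/ml DOX for 4, 8, 12 or 24 h, starting 24 h after plating, with 2 replicates per time. New RNA was labelled for 5 min with 0.5 mM 4-thiouridine before lysis. No later sample was kept without DOX, so hours of DOX, Xist RNA and time in culture cannot be told apart. The labels do not say whether replicates were separate cultures, so p-values measure the spread between these samples, and all values come from 1 cell line.

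Oxidative phosphorylation takes place in the inner mitochondrial membrane. Complexes I to IV pass electrons from NADH and succinate to oxygen, complexes I, III and IV pump protons, and complex V, the ATP synthase, uses the proton gradient to make ATP. A few subunits are encoded by mitochondrial DNA and the rest, studied here, by nuclear genes, so nuclear transcription must supply many proteins for each assembly. Doxycycline is itself known to inhibit the mitochondrial ribosome, which translates the subunits encoded by mitochondrial DNA.

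The libraries held 18809046 to 22274929 counted read pairs, of which the 85 genes took 0.354% to 0.400%. Between 49.2% and 52.8% of read pairs were assigned to an allele, and the lowest share was that of 0 h replicate 1. Genes shorter than 5 kb took 2.80% of the counts in 0 h replicate 1 and 2.77% in 24 h replicate 1, against 2.25% to 2.50% in the other 8 libraries. The 0 h replicates also differed from each other more than other pairs did, with a chi-square per degree of freedom of 12.4 against 5.69 to 6.51. Results that rest on 0 h replicate 1 are therefore also given without it. Xist rose by 8.26 on the log2 scale at 24 h (SE 0.25, edgeR adjusted p 3.73e-11). The embryonic stem cell markers Esrrb, Nanog and Pou5f1 were transcribed in every library. They stood at 974 to 1102, 273 to 330 and 104 to 134 CPM (read counts scaled to library size). Sox2 was listed at 0 throughout. Overlap of Sox2 with other gene models was not examined, so its 0 cannot be read as silence. The fibroblast genes Postn, Col3a1 and Dcn had 0 to 2 reads per library. The list of fibroblast genes also held Col1a1 and Col1a2, whose counts are not given here, so absence of fibroblasts is not shown.

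The members' promoters were described first, because several transcription factors are known for binding them. NRF1 and YY1, with the ETS family factor GABP, are classical regulators of nuclear respiratory genes. A promoter sequence from RefSeq (GRCm38.p6), from 250 bases before to 50 bases after the start, was found for 73 of the 85 members and for 9729 autosomal genes with the same read minimum. The NRF1 letters GCATGCGC, searched on both strands, were in 12 of the 73 (16.4%) and in 5.78% of the 9729. The YY1 letters AAGATGGCG were in 8 (11.0%) and in 3.22%. The ETS letters CCGGAAGT were in 5 (6.85%) and in 8.77%, the cyclic AMP response element TGACGTCA in 4 (5.48%) and in 3.45%, and the letters TNAAGGTCA of the oestrogen-related receptors in 2 (2.74%) and in 0.678%. TATAAA on the gene's own strand was in 2 (2.74%) and in 3.93%. At least 1 of the NRF1, YY1 and ETS matches stood in 24 members (32.9%), against 16.7% of the 9729. These shares are descriptions of letters in a window, with no test and no measure of binding.

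The YY1 matches shared a position that the choice of genes did not use. All 8 began 10 to 35 bases after the annotated start and read along the gene's own strand, whereas 62.6% of the 313 autosomal promoters with this match held it after the start. No autosomal share is given for the strand or the distance. The letters contain ATG, and whether a match overlaps a start codon was not examined. The 8 sites are shown with up to 10 bases on each side, 5′ to 3′ along the gene, in capitals for the match, in order of distance from the start.
Ndufaf8 (chr11:120098934-120098962, plus strand): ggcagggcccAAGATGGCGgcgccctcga
Ndufc1 (chr3:51408915-51408943, minus strand): cctgcggaacAAGATGGCGccgtccgtag
Atp5j2 (chr5:145191500-145191528, minus strand): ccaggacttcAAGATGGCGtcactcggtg
Ndufs7 (chr10:80249463-80249491, plus strand): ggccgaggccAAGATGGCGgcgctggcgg
Atp5sl (chr7:25619430-25619458, plus strand): gttacctggcAAGATGGCGgcgcccagag
Ndufa9 (chr6:126849097-126849125, minus strand): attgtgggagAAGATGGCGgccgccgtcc
Ndufs6 (chr13:73328433-73328459, minus strand): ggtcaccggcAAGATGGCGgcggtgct
Ndufs4 (chr13:114388045-114388069, minus strand): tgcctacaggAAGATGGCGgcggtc

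The NRF1 matches lay on both sides of the start, and in 9 of the 12 promoters every match began before it. The share was higher, at 85.9%, among the 562 autosomal promoters with this match. In 7 of the 13 sites the match ran on into its own reverse complement, so that 2 matches overlap in a run of 10 letters. The sites are shown in the same way, with the match or the overlapping pair in capitals.
Atp5l (chr9:44920965-44920992, minus strand): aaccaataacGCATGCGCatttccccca
Cox6a1 (chr5:115349101-115349130, minus strand): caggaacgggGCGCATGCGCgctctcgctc
Ndufaf4 (chr4:24897960-24897989, plus strand): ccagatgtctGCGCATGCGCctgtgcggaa
Ndufa6 (chr15:82354357-82354384, minus strand): ccgcggtagaGCATGCGCattgcagagc
Ndufa11 (chr17:56717692-56717721, plus strand): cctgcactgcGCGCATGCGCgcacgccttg
Sdhb (chr4:140961207-140961234, plus strand): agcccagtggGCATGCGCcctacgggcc
Atp5k (chr5:108434430-108434459, minus strand): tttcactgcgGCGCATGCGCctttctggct
Atp5g2 (chr15:102671070-102671099, minus strand): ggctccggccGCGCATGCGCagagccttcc
Ndufa8 (chr2:36049329-36049356, minus strand): cgctggagacGCATGCGCagatggtacc
Uqcr11 (chr10:80406808-80406835, minus strand): tcgccttcacGCATGCGCtatacgtctg
Ndufaf4 (chr4:24898074-24898101, plus strand): cccctggtgtGCGCATGCtccgtgcgta
Ndufaf5 (chr2:140170652-140170681, plus strand): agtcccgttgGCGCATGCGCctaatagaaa
Uqcrc1 (chr9:108936668-108936697, plus strand): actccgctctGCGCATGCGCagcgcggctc

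Atp5g1, Atp5g2 and Atp5g3 encode the same mature protein, the c subunit of the ATP synthase ring, and differ in their promoters and import signals. Their promoters are shown whole because the encoded product is shared while the start regions are not. Atp5g1 (chr11:96075582-96075881, minus strand), Atp5g2 (chr15:102670998-102671297, minus strand) and Atp5g3 (chr2:73911277-73911576, minus strand) hold 16, 20 and 21 CpG dinucleotides in 300 bases, beside a median of 20 over the 73 members and 21 over the 9729. Capitals mark the NRF1 pair in Atp5g2, 42 bases before the start. No NRF1, YY1, ETS or cyclic AMP response letters stood in the other two, and Atp5g3 held 1 match to the oestrogen-related receptor letters 52 bases before the start, not capitalised here.
Atp5g1: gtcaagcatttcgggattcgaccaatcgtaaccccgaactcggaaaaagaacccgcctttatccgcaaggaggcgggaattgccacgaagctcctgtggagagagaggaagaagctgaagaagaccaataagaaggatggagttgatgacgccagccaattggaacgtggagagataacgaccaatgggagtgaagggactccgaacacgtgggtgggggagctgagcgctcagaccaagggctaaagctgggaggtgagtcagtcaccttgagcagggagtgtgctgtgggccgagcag
Atp5g2: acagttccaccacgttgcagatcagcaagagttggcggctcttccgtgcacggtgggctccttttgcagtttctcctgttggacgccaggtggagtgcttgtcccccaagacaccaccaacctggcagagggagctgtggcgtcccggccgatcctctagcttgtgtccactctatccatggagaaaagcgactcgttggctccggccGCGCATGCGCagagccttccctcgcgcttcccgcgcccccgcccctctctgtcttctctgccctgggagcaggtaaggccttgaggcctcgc
Atp5g3: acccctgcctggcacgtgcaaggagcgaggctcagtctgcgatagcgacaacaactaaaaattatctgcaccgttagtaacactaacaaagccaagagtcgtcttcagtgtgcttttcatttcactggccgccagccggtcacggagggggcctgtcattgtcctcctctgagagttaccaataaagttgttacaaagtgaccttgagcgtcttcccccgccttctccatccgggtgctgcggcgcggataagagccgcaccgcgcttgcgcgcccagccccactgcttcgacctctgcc

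The promoter of Cox7b2 (chr5:71548156-71548455, minus strand), a complex IV gene described below for its unequal alleles, held 10 CpG dinucleotides and none of these matches.
Cox7b2: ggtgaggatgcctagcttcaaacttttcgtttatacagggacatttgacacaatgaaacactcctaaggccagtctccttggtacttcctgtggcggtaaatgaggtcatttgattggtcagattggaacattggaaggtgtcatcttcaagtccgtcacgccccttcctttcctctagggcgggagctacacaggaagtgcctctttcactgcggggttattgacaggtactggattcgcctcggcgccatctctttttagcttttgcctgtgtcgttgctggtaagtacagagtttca

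Divergent starts were common among the members. In 25 of the 85 (29.4%) another gene began on the opposite strand within 1 kb, against 2026 of 12484 autosomal genes with the same read minimum (16.2%). Ndufs1, a core subunit of complex I, and Eef1b2, a translation elongation factor, began 9 bases apart, at 112 and 116 CPM. Ndufa7 faced the ribosomal protein gene Rps28 (78.0 and 72.9 CPM), Ndufb5 faced the mitochondrial ribosomal protein gene Mrpl47 (40.6 and 23.0 CPM), and Sdhd faced Timm8b, of mitochondrial protein import (51.7 and 9.67 CPM). The members were short genes, with a median span of 7.51 kb against 25.2 kb for the same autosomal genes. Of the 85, 27 were shorter than 5 kb and 7 longer than 30 kb.

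Nascent levels were compared between genes as CPM per kb of gene span, introns included, averaged over the 10 libraries. The median was 3.43 CPM per kb over the members and 1.23 over autosomal genes with the same read minimum, 2.63 over 74 mitochondrial ribosomal protein genes and 37.6 over 72 cytosolic ones. By complex the median was 7.85 in complex V, 6.50 in complex IV, 4.89 in complex III, 2.46 in complex I and 1.71 in complex II. The ranges of the complexes overlapped. The compared sets also differ in gene length, with medians by complex from 4.61 kb (IV) to 19.7 kb (II). The part of length in these levels was not tested. The names of complex II are 4 subunits and 4 assembly factors, so its median does not describe the subunits alone. Its subunits stood at 6.88 (Sdhd), 4.55 (Sdha), 2.25 (Sdhc) and 1.79 CPM per kb (Sdhb). Its assembly factors stood at 1.64 (Sdhaf2), 1.23 (Sdhaf1), 0.418 (Sdhaf3) and 0.383 CPM per kb (Sdhaf4). The 12 assembly factors of complexes I and II, which are not part of the finished enzymes, had a median of 1.33 CPM per kb. The 7 core subunits of complex I, which form the electron path of its peripheral arm, lay from 2.36 to 3.93 CPM per kb, a 1.66-fold span. The 8 genes of complex III spanned 3.10-fold, the 26 accessory names of complex I 5.22-fold and the 85 members 149-fold. Such a span widens with the number of genes, and the lowest member, Cox7b2 at 0.25, sets that of the 85. The median of the 26 accessory names of complex I was 2.53.

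**Figure D1:**
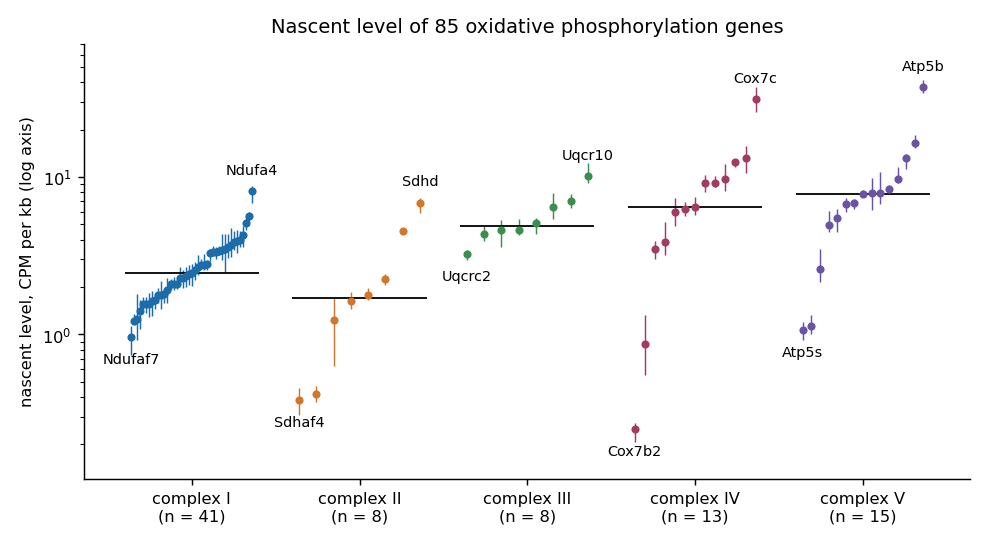
Nascent level of each of the 85 genes by respiratory complex, as CPM per kb of gene on a log axis. Each point is 1 gene, the mean of 10 libraries, with a line over their range and a bar at the median of the complex. Genes of complexes IV and V reach the highest levels, led by Atp5b at 37.2 and Cox7c at 31.2 CPM per kb.

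In complex V the highest level was that of Atp5b (chr10:128083307-128090388, plus strand), the catalytic beta subunit. Its 0 h samples had 294 and 267 CPM, those of 4 h 255 and 254, those of 8 h 246 and 283, those of 12 h 256 and 250, and those of 24 h 290 and 242. The 2 samples of 24 h enclosed the lower 0 h value, and the level per kb was 37.2 ± 2.66 (SD, n = 10). Atp5a1, which encodes the alpha subunit paired with beta in the finished enzyme, stood at 16.5 ± 1.25 CPM per kb. The 3 genes of the c subunit stood at 13.2 ± 0.78 (Atp5g3), 9.79 ± 0.69 (Atp5g2) and 7.86 ± 1.17 (Atp5g1).

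In complex IV the highest level was that of Cox7c, a small structural subunit, at 31.2 ± 2.93 CPM per kb. Its samples ran from 25.8 to 37.4, which overlaps the 34.1 to 41.5 of Atp5b. The isoforms of several complex IV subunits are known to differ between tissues, and the pairs were far apart in these cells. Cox4i1 stood at 6.50 ± 0.58 CPM per kb, whereas Cox4i2, the form of lung and hypoxic cells, had a mean of 3.3 reads. Cox6a1 stood at 5.95 ± 0.91, and the heart and muscle form Cox6a2 was at 0 reads in all 10 libraries. Cox8a stood at 13.2 ± 1.55, while Cox8b and Cox8c had means of 0.1 and 0.4 reads. Cox7a2 stood at 9.17 ± 0.70 and the muscle form Cox7a1 at 0.87, with 1.03 to 2.47 CPM in the libraries. Cox7a2l, known for a role in respiratory supercomplexes that was not examined here, stood at 6.25 ± 0.45. The exception was Cox6b, where Cox6b1 (3.51) and the testis form Cox6b2 (3.86) stood at similar levels.

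In complex I the highest level was 8.14 ± 0.62 CPM per kb, at Ndufa4, which carries a complex I name although its protein is now placed in complex IV. Its relative Ndufa4l2, known from hypoxic cells, had a mean of 2.2 reads. In complex II, Sdhd, a membrane anchor, led with 6.88 ± 0.45, and in complex III the small subunit Uqcr10 led with 10.1 ± 0.96. Ndufb8 and the X-linked Ndufb11 were listed at 0 in every library. Other gene models on the same strand cover the whole span of both, so their zeros cannot be read as silence.

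The summed level of each complex was then followed over time. The 85 genes together held 3855 ± 14.6 CPM at 0 h and 3856 ± 123 at 24 h (SD, n = 2), a ratio of 1.00. Complex I held 1525 and 1546 CPM at 0 h and 1563 and 1527 at 24 h. Complex II held 332 and 346 at 0 h and 332 and 346 at 24 h. Complex III held 300.4 and 308 at 0 h and 313 and 301 at 24 h, and complex IV held 556 and 546 at 0 h and 583 and 540 at 24 h. Complex V held 1151 and 1099 at 0 h and 1152 and 1054 at 24 h. The samples of 0 h and 24 h overlapped in every complex. Before that, both 12 h samples lay below both 0 h samples in complex III (275 and 296 CPM), complex IV (494 and 530) and complex V (1042 and 1061). Both 4 h samples also lay below in complex I (1524 and 1507 CPM), complex IV (540.1 and 524) and complex V (1070.1 and 1045). At 8 h the samples of each complex overlapped those of 0 h. The ratios of the 24 h and 0 h means were 1.01, 1.00, 1.01, 1.02 and 0.981 for complexes I to V. At 12 h the ratios were 1.01 for complexes I and II, 0.938 for III, 0.930 for IV and 0.935 for V. Without 0 h replicate 1 the 0 h level was 308 CPM in complex III, 546 in IV and 1099 in V, in the last 2 nearer to 12 h. Median gene length was 4.87 kb in complex III, 4.61 in IV and 7.08 in V, against 8.61 in I and 19.7 in II. The part of gene length in these sums was not tested, and no autosomal share is given for them.

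Gene by gene, no member passed the test at any time. An edgeR quasi-likelihood fit over all 14525 tested genes compared each time with 0 h, and an adjusted p under 0.05 was taken as a change. At 4, 8, 12 and 24 h 0 of the 85 members were called, beside 0.00713%, 0%, 0.171% and 0.549% of the 14019 autosomal genes tested. At an unadjusted p under 0.05, 1 member was higher and 1 lower at 4 h and likewise at 8 h. The counts at 12 h were 3 higher with 5 lower, and 2 with 0 at 24 h. Of the 14019 autosomal genes, 128 were higher and 140 lower at 4 h, and 175 and 199 at 8 h. At 12 h these were 784 and 564, and at 24 h 667 and 465. A slope over the hours called 0 members, beside 1.49% of autosomal genes, and gave 1 member an unadjusted p under 0.05, the core subunit Ndufs3 (0.20 per 24 h, SE 0.08, edgeR adjusted p 0.287). At that unadjusted limit the slope was upward in 894 and downward in 647 of the 14019 autosomal genes. DESeq2 and limma voom, run for each time, also called 0 members.

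The intervals show what size of change these libraries could miss. The median SE of a member's log2 change was 0.11, and SEs ran from 0.068 to 0.40 at 24 h. At 24 h the 95% interval lay within 0.5 of no change on the log2 scale for 71 of the 85 members and within 1 for all 85.

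The largest differences at 24 h are given as values. Ndufaf7, a methyltransferase that acts in complex I assembly, had 9.57 and 8.10 CPM at 0 h and 9.39 and 12.1 at 24 h (log2 change 0.28, SE 0.16, edgeR adjusted p 0.609), so the groups overlapped. Without 1 library the change of Ndufaf7 ran from 0.08 (no 24 h replicate 2) to 0.44 (no 24 h replicate 1), with 0.15 without 0 h replicate 2. Atp5sl (also called Dmac2), an assembly factor of complex I despite its name, had 6.71 and 6.77 CPM at 0 h and 8.13 and 8.03 at 24 h (0.26, SE 0.14, adjusted p 0.568), and its groups did not overlap. Cox7b2 had 21.8 and 23.8 CPM at 0 h and 27.5 and 26.3 at 24 h (0.24, SE 0.10, adjusted p 0.404), also without overlap. The lowest values belonged to 3 short genes. Ndufaf3, an assembly factor, had 2.68 and 1.97 CPM at 0 h and 1.91 and 1.70 at 24 h (-0.37, SE 0.26, adjusted p 0.725), and the change was -0.12 without 0 h replicate 1 and -0.58 without 0 h replicate 2. Atp5k, the e subunit of the ATP synthase, had 12.2 and 7.92 CPM at 0 h and 8.53 and 7.54 at 24 h (-0.32, SE 0.19, adjusted p 0.638), and without 0 h replicate 1 the change was 0.025. Ndufb10, an accessory subunit, had 10.1 and 8.28 CPM at 0 h and 9.34 and 5.79 at 24 h (-0.29, SE 0.20, adjusted p 0.723), and without 24 h replicate 2 it was 0.019.

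Taken as a list, the members had a median slightly below that of autosomal genes at 4, 8 and 12 h and close to it at 24 h. The median log2 change was -0.07, -0.06, -0.11 and 0.00 at 4, 8, 12 and 24 h, against 0.00, 0.00, 0.00 and 0.01 over autosomal genes. The sign at 24 h depended on the scaling, with -0.01 by library size alone, and on the libraries, from -0.04 without 24 h replicate 1 to 0.03 without 24 h replicate 2. At 8 h the median was 0.01 without 8 h replicate 1 and -0.11 without 8 h replicate 2. Without 0 h replicate 1 the medians were -0.02, -0.01, -0.04 and 0.02. By complex, the 12 h medians were -0.09 (I), 0.00 (II), -0.15 (III), -0.14 (IV) and -0.12 (V), and the 24 h medians lay between -0.02 and 0.02. The 12 assembly factors had medians of 0.05, 0.06, 0.07 and 0.07 at the 4 times. At 12 h both samples lay below both 0 h samples for 29 of the 85 members, beside 19.3% of autosomal genes, and above for 9, beside 20.1%. At 24 h 10 members lay below, beside 14.9%, and 11 above, beside 19.6%.

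**Figure D2:**
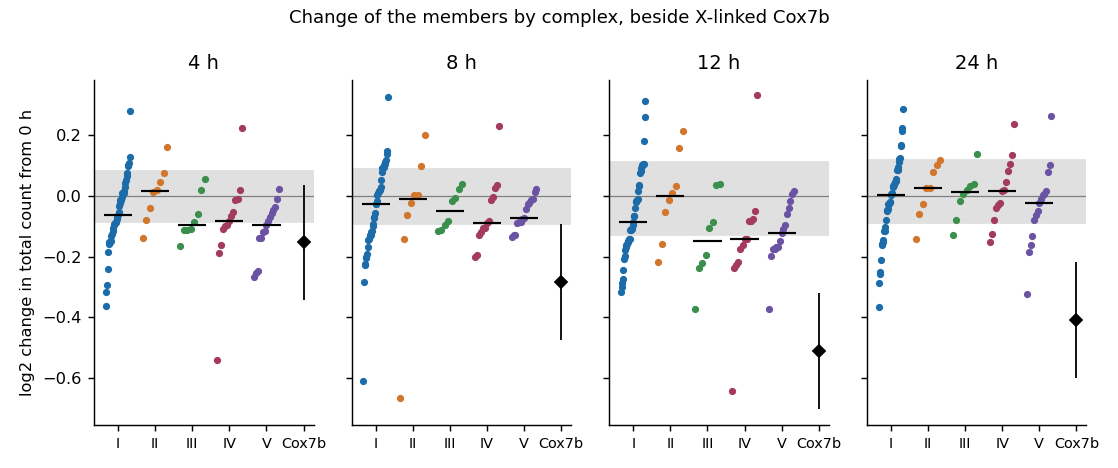
Log2 change of total nascent counts against 0 h at 4, 8, 12 and 24 h for the 85 members by complex (points, with a bar at the median) and for the X-linked Cox7b (diamond, 95% interval), over a grey band for the middle 50% of autosomal genes. The medians lie from -0.15 to 0.02, and the lowest points, Cox7a1 and Sdhaf1, are the members with the fewest reads.

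Same-numbered replicates deviated together in total counts, so the fit was repeated with the replicate number as a block. With it, 2 members were called at 12 h, both higher, beside 3.12% of autosomal genes. Cox7b2 had 29.0 and 28.4 CPM at 12 h, above both 0 h samples (log2 change 0.33, SE 0.09, edgeR adjusted p 0.0264, against 0.183 without the block). Ndufaf5 (chr2:140170646-140205252, plus strand), which hydroxylates a core subunit during complex I assembly, had 71.0 and 81.4 CPM at 0 h and 95.2 and 87.1 at 12 h (0.26, SE 0.07, edgeR adjusted p 0.0329, against 0.218 without the block). With the block and without 0 h replicate 1, a setting added after seeing the data, neither was called (0.27 and 0.15, edgeR adjusted p 0.356 and 0.529). No member was called at 24 h with the block.

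Both of these genes are long, at 105 and 34.6 kb, and the change of the members went with gene length. The Spearman correlation between gene length and log2 change across the 85 members was 0.50, 0.58, 0.73 and 0.44 at 4, 8, 12 and 24 h, against 0.27, 0.33, 0.26 and -0.02 across the autosomal genes tested. These are correlations across genes that share libraries, with no test. The same measure for 0 h replicate 1 over 0 h replicate 2 was -0.60 in the members and -0.20 in autosomal genes, with short genes higher in replicate 1. Without 0 h replicate 1 the members' correlations were -0.15, -0.02, 0.20 and -0.13, and without 0 h replicate 2 they were 0.66, 0.67, 0.81 and 0.55.

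By length class, the 27 members under 5 kb had a median log2 change of -0.17 at 12 h, the 51 of 5 to 30 kb had -0.08, and the 7 over 30 kb had 0.16, against -0.14, -0.02 and 0.06 for autosomal genes of the same classes. Without 0 h replicate 1 the members' values were -0.04, -0.06 and 0.09. The summed CPM of the 27 short members was 526 and 457 in the 0 h samples, 423 and 455 in those of 12 h, and 517 and 448 in those of 24 h. Both 12 h samples thus lay below both 0 h samples, by a small margin from replicate 2. The 7 long members held 649 and 680 CPM at 0 h and 711 and 730 at 12 h, with no overlap, and 662 and 686 at 24 h. The share of counts from genes under 5 kb moved with these values among the libraries, and its part in them was not tested.

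**Figure D3:**
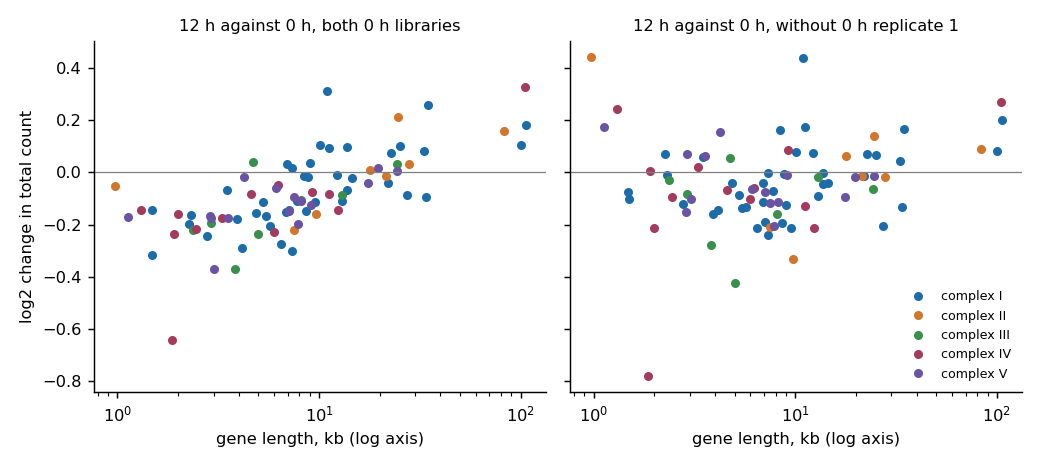
Log2 change at 12 h against gene length (log axis, kb) for the 85 members, coloured by complex, with both 0 h libraries on the left and without 0 h replicate 1 on the right. Each point is 1 gene. The Spearman correlation is 0.73 with all samples and 0.20 without that library.

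The allelic share was described by the d-score, B6 reads over the sum of B6 and Cast reads, for which equal alleles give 0.5. At least 10 allelic reads in every library were required, which 84 of the 85 members met. Cox7a1, with 2 to 19, did not. The share of a member's reads that could be assigned to an allele ran from 7.57% at Sdhc to 96.7% at Sdhaf1, with a median of 57.6%. The median d-score of the members was 0.517 ± 0.003 at 0 h and 0.519 ± 0.010 at 24 h (SD, n = 2), beside 0.522 and 0.524 for autosomal genes. It was 0.496 at 0 h and 0.283 at 24 h for X-linked genes, where Xist acts on the B6 copy. Pooled over all allelic reads of the members, the B6 share was 0.541.

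No member's allelic share passed the test at any time. Of 84 members, 0 were called at 4, 8, 12 and 24 h against 0 h, beside 0.00866%, 0.0693%, 0.173% and 0.364% of the 11543 autosomal genes tested. At an unadjusted p under 0.05, the ratio leaned towards B6 in 0 members and towards Cast in 2 at 4 h, and in 3 and 3 at 8 h. At 12 h these were 3 and 1, and at 24 h 1 and 2. Of the 11543 autosomal genes, 278 leaned towards B6 and 202 towards Cast at 4 h, and 298 and 164 at 8 h. Their counts were 374 and 237 at 12 h, and 406 and 261 at 24 h. DESeq2 also called 0 members. The lowest adjusted p was that of Atp5sl at 24 h, with d-scores of 0.530 and 0.528 at 0 h and 0.369 and 0.391 at 24 h (ratio of the alleles -0.87 on the log2 scale, SE 0.28, edgeR adjusted p 0.0893). Its 12 h samples, at 0.523 and 0.368, spanned both levels. Without 12 h replicate 2, 1 member was called at 12 h, Uqcrfs1, the Rieske iron-sulphur protein of complex III (0.77, SE 0.21, edgeR adjusted p 0.02). The left-out library had a d-score of 0.482 and the other 12 h library 0.589, beside 0.430 and 0.478 at 0 h.

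**Figure D4:**
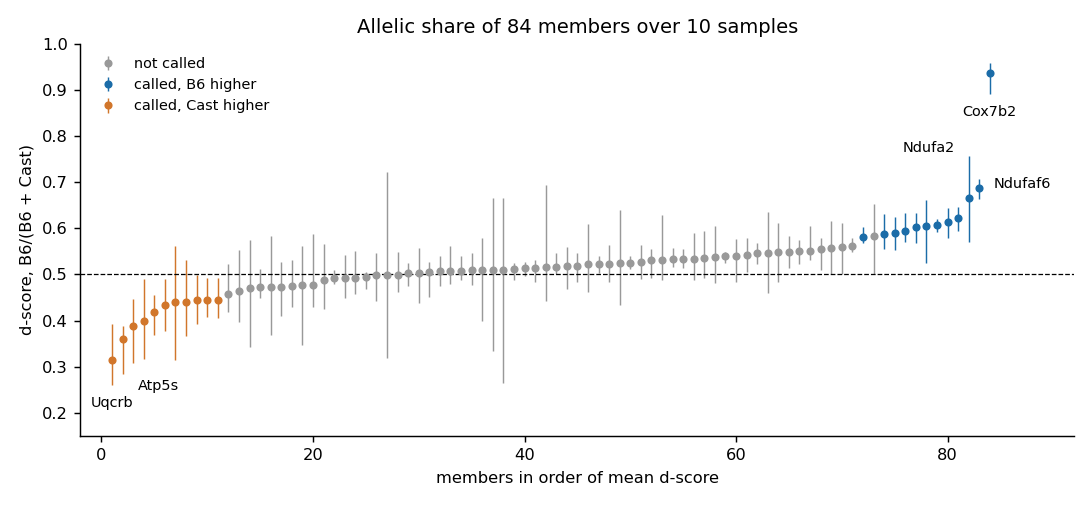
Mean d-score over 10 libraries of 84 members in rising order, with a line over the range of the libraries and the 23 called members in colour. Cox7b2 stands alone at 0.936, and Uqcrb is lowest at 0.314.

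The mean difference between the alleles over all 10 samples was tested against a fold of 1.2, after centring on the bulk of genes. This test pools the times and does not require a difference at each of them. In this test 23 of 84 members were called, or 27.4%, beside 37.7% of autosomal genes. The B6 allele was higher in 12, beside 19.5% of autosomal genes, and the Cast allele in 11, beside 18.1%. Complex IV had 5 genes higher from B6 and 1 from Cast of 12 tested. Complex I had 4 and 4, II 1 and 1, III 1 and 2, and V 1 and 3. Of the 3 in complex V, Atp5s and Atp5sl were placed there by symbol alone. The members lay closer to equal alleles than autosomal genes did as a description, with 54 of 84 mean d-scores from 0.45 to 0.55 (64.3%, against 50.3%) and 83 of 84 from 0.3 to 0.7 (98.8%, against 90.2%). Allelic reads per gene, which set the spread of a d-score, differ between the 2 sets. The autosomal shares in this paragraph also include 393 genes of chromosome 16, which the members leave out. On that chromosome 7.38% of mean d-scores lay from 0.45 to 0.55 and 79.1% from 0.3 to 0.7, so the 2 sets are not alike.

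The widest difference was that of Cox7b2 (chr5:71442823-71548205, minus strand), a paralogue of the X-linked Cox7b that is known from testis. It had 3349 B6 and 225 Cast reads over the 10 libraries. The 0 h libraries gave d-scores of 0.942 and 0.934, the 4 h libraries 0.937 and 0.928, the 8 h libraries 0.939 and 0.892, the 12 h libraries 0.958 and 0.939, and the 24 h libraries 0.958 and 0.936. No library fell below 0.892, and the log2 ratio was 3.76 (SE 0.09, edgeR adjusted p 3.8e-18). It was also the member with the lowest level per kb, 0.25. The nearest tested genes did not share the side. Gabra4, 21.5 kb away, had a mean d-score of 0.353 and was called towards Cast. Gabrg1, 600 kb away on the other side with 188 allelic reads over the libraries, had 0.432 and was not called. Farther out, Gnpda2 stood at 0.502 and Commd8 at 0.551, neither called.

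Higher from B6 were also Ndufaf6, an assembly factor, with d-scores from 0.663 to 0.707 (log2 ratio 1.01, SE 0.04, edgeR adjusted p 3.09e-14), Ndufa2, an accessory subunit, from 0.569 to 0.758 (0.85), and Cox6c, from 0.594 to 0.645 (0.59). Cox7a2l (0.55) and Atp5c1 (0.51), the gamma subunit that turns within the ATP synthase, followed. The largest ratios towards Cast were those of Uqcrb, a complex III subunit, with d-scores from 0.260 to 0.392 (-1.23, SE 0.10, edgeR adjusted p 5.35e-09), and of Atp5s, known as coupling factor B, from 0.285 to 0.389 (-0.95, SE 0.07, adjusted p 3.19e-09). Ndufv3, an accessory subunit of the NADH-binding module, ran from 0.307 to 0.447 (-0.79), Sdhaf4 from 0.316 to 0.491 (-0.73), Ndufb3 from 0.370 to 0.455 (-0.60) and Uqcrq from 0.377 to 0.490 (-0.51). Only 13.4% of the reads of Uqcrb, 67 to 126 per library, could be assigned to an allele.

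The paralogue pairs were not on 1 side. Cox6b1 was higher from B6 (mean d-score 0.605) and Cox6b2 from Cast (0.440), and among the c subunit genes Atp5g1 was called towards Cast (0.444). Neighbouring genes gave a mixed picture. Of the 46 nearest tested genes on either side of the 23 called members, 22 lay on the same side of equal alleles, 8 of them called, and 7 were called on the other side. Atp5s stood beside Map4k5 at 0.462, which was also called towards Cast. Ndufaf6 stood between Plekhf2 at 0.785 and Trp53inp1 at 0.445. Uqcrb stood beside Mterf3 at 0.495.

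Genes of the same name pattern on the X chromosome and on chromosome 16 were outside the set. The X-linked Cox7b (chrX:106015700-106022450, plus strand), a complex IV subunit, gave 120 and 110 CPM in the 0 h libraries, 110 and 96.5 in those of 4 h, 88 and 101 in those of 8 h, 79.8 and 81.4 in those of 12 h, and 89.9 and 83.3 in those of 24 h. All 4 samples of 12 and 24 h lay below both 0 h samples. At 12 h the log2 change of Cox7b was -0.51 (SE 0.09) with an edgeR adjusted p of 0.00958. At 24 h it was -0.41 (SE 0.09) with an edgeR adjusted p of 0.0266. Without 0 h replicate 1 the adjusted p was 0.088 at 12 h and 0.203 at 24 h. With 1 of the later samples left out in place of it, the adjusted p was 0.143 or 0.0843 at 12 h and 0.0887 or 0.276 at 24 h. Its d-score was 0.442 and 0.450 at 0 h and 0.237 and 0.291 at 24 h, and the allelic ratio changed by -1.16 on the log2 scale (edgeR adjusted p 6.27e-14). Per kb it stood at 14.2 CPM against 0.25 for its autosomal paralogue Cox7b2, whose changes are given above. The X-linked Ndufa1 had too few allelic reads to test, and its total change at 24 h was -0.23 (SE 0.18, edgeR adjusted p 0.751). On chromosome 16, where the median d-score of all genes was 0.355, Atp5o stood at 0.362, Ndufb4 at 0.375 and Atp5j at 0.451.

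**Figure D5:**
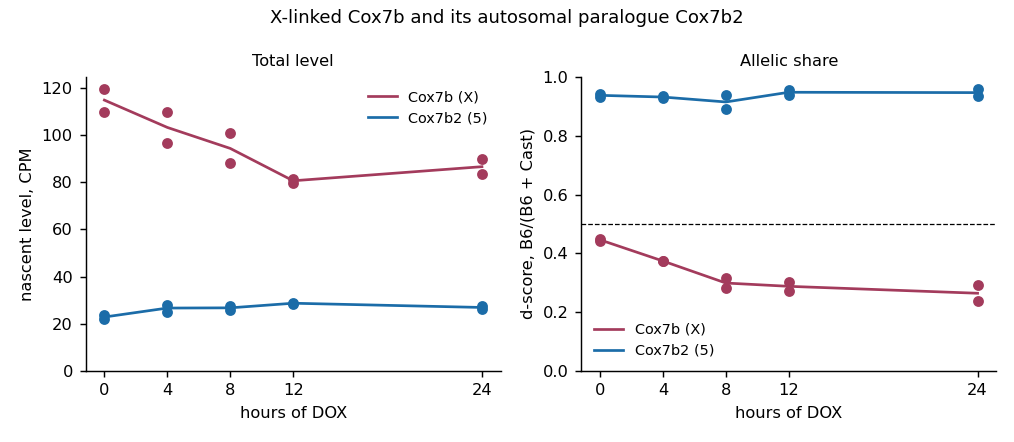
CPM and d-score of the X-linked Cox7b and its autosomal paralogue Cox7b2 in each library (points) against hours of DOX, with a line through the means. The d-score of Cox7b falls from 0.442 and 0.450 at 0 h to 0.237 and 0.291 at 24 h, and that of Cox7b2 stays at 0.892 or above.

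Other genes of the pathway were read from lists. Of 35 tested assembly factors outside the name pattern, 0 were called at 24 h, with 0 at an unadjusted p under 0.05 and a median log2 change of 0.04. Of 15 tested regulators of nuclear respiratory genes 0 were called, with 0 at an unadjusted p under 0.05. Among them Nrf1 stood at 464 CPM (-0.16, SE 0.07), Gabpa at 264 CPM (0.06, SE 0.07), Yy1 at 233 CPM (0.02, SE 0.08) and Esrrb at 1028 CPM (0.00, SE 0.07), while the coactivator Ppargc1a had 0 to 6 reads per library and was not tested. Of 13 citric acid cycle genes 0 were called, with 1 lower at an unadjusted p under 0.05. At that limit 667 of the 14019 autosomal genes were higher and 465 lower at 24 h. In the allelic test over time, 1 regulator was called at 24 h, Gabpa of chromosome 16, and 1 citric acid cycle gene at 12 h, the X-linked Idh3g. Cyc1 and cytochrome c, Cycs, the remaining electron carriers, changed by 0.03 (SE 0.17) and 0.01 (SE 0.12). The 74 mitochondrial and 72 cytosolic ribosomal protein genes had medians of 0.04 and -0.09 at 24 h and -0.09 and -0.19 at 12 h, with 0 called. Otx2, a gene of the formative state, was the 1 marker gene called at 24 h (-0.84, edgeR adjusted p 0.0159).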

How the data were processed

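Deposited tables for the 10 samples were used. The authors trimmed read pairs with Cutadapt, aligned them with STAR to mm10 with the positions that differ between strains masked, kept uniquely aligned proper pairs, and split them by allele with SNPSplit. The submitters' notes also name TopHat2 2.1.0 and bedtools. The raw counts deposited by the authors are strand-specific featureCounts 1.5.1 counts of all, B6 and Cast read pairs over the longest span of each gene, introns included. Per the labels and the authors' methods, the deposited d-score is the fraction of B6 counts in the allelic counts, and it was recomputed here. A spike-in mix was added, and scaling to it is not stated, so that a change common to all genes cannot be seen. Removal of duplicates is not given in the sources used here.

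Counts were fitted with edgeR 4.0.16 (R 4.3.3, limma 3.58.1, DESeq2 1.42.0) by a two-sided quasi-likelihood test after filterByExpr and TMM scaling, with time as a factor over all 10 samples. CPM are counts divided by TMM-scaled library sizes and multiplied by a constant. The allelic tests used 20 columns, 1 for each allele in each library, with an intercept per library. Genes needed 10 or more allelic reads in all libraries, and TMM scaling of the columns centres the ratio. The test over all samples used glmTreat with a fold of 1.2. P-values were adjusted by Benjamini-Hochberg over all genes tested, X-linked genes included, and called under 0.05. The scripts were tested on simulated data. With 2 samples per time, sums over members and median d-scores were not tested.

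Same-numbered replicates correlated in their deviations from the time means of total counts (10 of 10 pairs of times with r over 0.1, mean 0.214), and the pairing number comes from the labels. For the allelic ratio 0 of 10 did (mean 0.034). The members and lists were chosen with earlier results of these data known. Genes named are those called, the 3 largest rises and falls at 24 h, the 6 highest and lowest allelic ratios, the highest level of each complex, paralogues, genes left out by chromosome, and genes near the read minimum. Other genes were named after their values were seen. Of the members, 84 were found in GENCODE M21 by name, place and strand, all protein coding. Alternatives changed the scaling, filter, tool, block, read minimum, fold threshold, centring and samples.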

Additional observations from a re-analysis of the deposited data

How the results depend on the processing

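No member was called in total counts at 4, 8 or 24 h or by the slope under any alternative run: another scaling, no filter, limma voom, the replicate block, each library left out in turn and, for single times, DESeq2 and adjustment over autosomal genes. With the replicate block, 2 members were called higher at 12 h, which is the one call of members the block changed. Over the alternatives the autosomal calls ran from 1 to 437 at 12 h, from 15 to 464 at 24 h and from 102 to 518 for the slope, against 24, 77 and 209, and the highest values are those with the block. For the allelic ratio over time, leaving out each library gave 0 to 1 members called higher at 12 h. The reading without 12 h replicate 2 rests on a lone 12 h sample that is assumed to vary like the other times.

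For the ratio over all samples, 12 members were higher from B6 and 11 from Cast. With no fold threshold these were 25 and 29, and with a fold of 1.5 they were 3 and 3. Without centring they were 14 and 5, since B6 counts exceeded Cast counts in every library. Leaving out libraries gave 11 to 12 and 9 to 11, and the replicate block 12 and 11. At 50 allelic reads in every sample, which 75 members met, they were 11 and 9.

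The 24 h change of Atp5k ran from -0.61 to 0.025 and that of Ndufb10 from -0.67 to 0.019 when libraries were left out, and with the block and no 0 h replicate 1 Atp5k was at 0.071. The cause was not tested. The ratio of 24 h to 0 h for complex I was 0.986 with counts divided by length before summing. The B6 share of pooled member reads was 0.540 at both 0 h and 24 h, above the median d-score.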
